A study of Mus musculus with 4 samples.

Results

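The Dlk1-Dio3 domain on mouse chromosome 12 was examined in F123-ESCs, a male hybrid embryonic stem cell line whose maternal genome is S129 and whose paternal genome is CAST, so that reads covering a SNP between the strains can be given to one parental copy. Its 8 members were taken by gene symbol: Meg3, Rian, Mirg, Dlk1, Rtl1, Dio3, Begain and Wdr25. They are 8 of the 24026 genes of the file. The rule that took them used no measured value, but earlier results of these data were known when they were chosen. RNAseq was performed on polyA-enriched RNA of 4 libraries of untreated cells, replicates 1 to 4, harvested about 48 h after plating. The cells had been grown on feeder fibroblasts and then passaged without them in medium with serum replacement and LIF, and there was no treated or differentiated group. Each gene has an RPKM (reads per kilobase, scaled to the reads of its column) for S129 and for CAST in each library. Nothing in the labels says that the libraries came from separate cultures, so p-values measure the spread between these libraries only.

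The domain is an imprinted cluster, in which some genes are transcribed mainly from the copy inherited from one parent. On the maternal copy, non-coding RNAs are made in one direction from the Meg3 promoter through Rian and Mirg, and the microRNAs (miRNAs) and small nucleolar RNAs (snoRNAs) of the cluster are processed from these transcripts. On the paternal copy, a methylated region between Dlk1 and Meg3 silences the non-coding RNAs, and the protein-coding genes Dlk1, Rtl1 and Dio3 are expressed. In embryonic stem cells, expression of Meg3 and Rian is known as a marker of developmental potential, and the imprint of this cluster is known to be easily lost or gained in culture. S129 is therefore the copy on which Meg3, Rian and Mirg are known to be active, and CAST the copy on which Dlk1, Rtl1 and Dio3 are known to be active.

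In mm10 coordinates the members cover 1.39 Mb, from Wdr25 at chr12:108893631-109028452 to Dio3 at chr12:110279068-110281097. Begain follows Wdr25 at chr12:109032187-109068217 and is read from the other strand. Dlk1 lies at chr12:109452823-109463336, and 77.7 kb separate its end from the start of Meg3, which lies at chr12:109541001-109571726. Rtl1 is annotated on the opposite strand at chr12:109589193-109600330, between Meg3 and Rian, which lies at chr12:109603940-109661716. Mirg follows at chr12:109729764-109749460, and 530 kb separate it from Dio3. Meg3 and Mirg are annotated as long intergenic non-coding RNAs, Rian as a processed transcript and the 5 others as protein-coding genes.

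The first sequence is the promoter window of Meg3, since the non-coding members are read from this side of the domain. It is the plus strand of chr12:109540746-109541045 in GRCm38.p6 from RefSeq, with 250 bases before and 50 bases after the start annotated by RefSeq. That start lies a few bases before the start of Meg3 given above, chr12:109541001, which is from GENCODE M21. Capitals mark matches to TGACGTCA (the cAMP response element), TATAAA (one form of the TATA box) and TGCCGC (the core of the ZFP57 motif), each searched on both strands.
Meg3 promoter: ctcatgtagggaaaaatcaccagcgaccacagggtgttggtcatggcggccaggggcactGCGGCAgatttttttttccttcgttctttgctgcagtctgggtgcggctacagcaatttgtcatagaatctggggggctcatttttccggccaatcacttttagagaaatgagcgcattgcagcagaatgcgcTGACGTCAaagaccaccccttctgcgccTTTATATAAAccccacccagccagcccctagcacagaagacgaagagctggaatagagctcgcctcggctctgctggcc
The match to TGACGTCA starts 57 bases before the RefSeq start site. The matches to TATAAA start 25 bases before it on the plus strand and 29 bases before it on the minus strand, where they overlap. TGCCGC was matched on the minus strand, 190 bases before the start. Of 32851 promoter windows in the RefSeq table, 1.79% held TGACGTCA, 13.6% held TATAAA and 11.6% held TGCCGC on at least 1 strand. The table held 11 windows of 6 members. Besides this window of Meg3, only that of Dio3 held a match, to TATAAA. Wdr25 and Rtl1 were the members without a window in the table.

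The second set is from Rtl1, the retrotransposon-like gene of the domain, because its coding sequence lies opposite the genes of maternal miRNAs. Capitals mark the seed of each miRNA (bases 2 to 8, counted from its 5′ end) and, in the Rtl1 transcript, the bases opposite the seed. The miRNAs lie on the plus strand at chr12:109590459-109590479 (miR-431-5p), chr12:109591781-109591802 (miR-433-3p), chr12:109592888-109592909 (miR-127-3p), chr12:109594565-109594586 (miR-434-3p) and chr12:109595331-109595352 (miR-136-5p).
mmu-miR-431-5p: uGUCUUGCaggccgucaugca
Rtl1 site of miR-431-5p: tgcatgacggcctGCAAGACa
mmu-miR-433-3p: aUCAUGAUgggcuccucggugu
Rtl1 site of miR-433-3p: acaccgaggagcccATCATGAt
mmu-miR-127-3p: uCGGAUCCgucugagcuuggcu
Rtl1 site of miR-127-3p: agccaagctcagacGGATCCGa
mmu-miR-434-3p: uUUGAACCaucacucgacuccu
Rtl1 site of miR-434-3p: aggagtcgagtgatGGTTCAAa
mmu-miR-136-5p: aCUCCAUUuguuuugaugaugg
Rtl1 site of miR-136-5p: ccatcatcaaaacaAATGGAGt
Each of these miRNAs was complementary to the Rtl1 transcript over its whole length at 1 site, and all 5 sites lay in the coding sequence. Counted from the 5′ end of the transcript of 6358 bases, the sites started at base 5072 for miR-431-5p, 3749 for miR-433-3p, 2642 for miR-127-3p, 965 for miR-434-3p and 199 for miR-136-5p. Reads of Rtl1 and reads of a transcript that runs through these miRNA genes thus come from the same bases and differ in strand.

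The libraries held 34120416 to 56627972 reads assigned to an allele, of which S129 had 50.8% to 51.0%. Levels of genes correlated between libraries with Pearson's r of 0.989 to 0.997 over 11946 genes, and the lowest values, 0.989, were those of replicate 4 with replicates 2 and 3. All 10 pluripotency markers were above 1 RPKM, with a summed level of 8154 to 9720 RPKM. Markers of feeder fibroblasts summed to 186 to 234 RPKM, of which Col1a2 gave 145 to 186. Lum was at 0.0462 RPKM, and none of the 12 feeder markers was listed at 0. Among the 10 tested, 7 were called higher on S129 and 2 on CAST, against 31.4% and 31.3% of all genes tested. In bulk RNA a smaller number of cells of one type and less RNA per cell cannot be told apart, and the part of feeder RNA in the values of the members was not tested.

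Meg3, Rian and Mirg, the maternal non-coding RNAs, were higher on S129 than on CAST in 4 of 4 libraries, by 3.33-fold to 4.51-fold. CAST reads were present for all 3 in every library, with pooled shares of 17.5% for Rian, 18.9% for Meg3 and 22.3% for Mirg. Among the 8 members, 7 differed between the alleles: 4 were higher on S129 and 3 on CAST, and Begain was not called. Of all 13341 genes tested, 62.7% were called in either direction, 31.4% higher on S129 and 31.3% higher on CAST, so that a call alone does not set a member apart. With every column rescaled to one autosomal sum, which raised the median difference of all genes by 0.10 on the log2 scale, 5134 genes were called higher on S129 and 3070 on CAST, against 4187 and 4182. A call together with a difference of at least 2-fold was made for 9.55% of the genes tested on the S129 side and 5.43% on the CAST side. The members Meg3, Rian, Mirg and Rtl1, were among the former and Dio3 was among the latter.

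Meg3 encodes a long non-coding RNA and stands first in the maternal transcription unit. Its S129 RPKM was 69.0, 71.2, 73.4 and 69.0 in replicates 1 to 4, and its CAST RPKM was 16.2, 16.6, 19 and 16.6. The lowest S129 value lay above the highest CAST value by more than 3-fold. Within each allele the libraries stayed close together, apart from the CAST value of replicate 3. The S129 minus CAST difference on the log2(RPKM+0.1) scale was 2.04 ± 0.040 (SE, n = 4), with an adjusted p of 1.13e-05 by limma. In reads, S129 held 81.5%, 81.7%, 80.0% and 81.2% of Meg3, and 10211 S129 reads stood against 2375 CAST reads in all. The pooled S129 share was 81.1%, with an exact 95% binomial interval of 80.4% to 81.8% (counting error only: the libraries carried no molecular identifiers, and copies of one molecule cannot be seen).

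**Figure D1:**
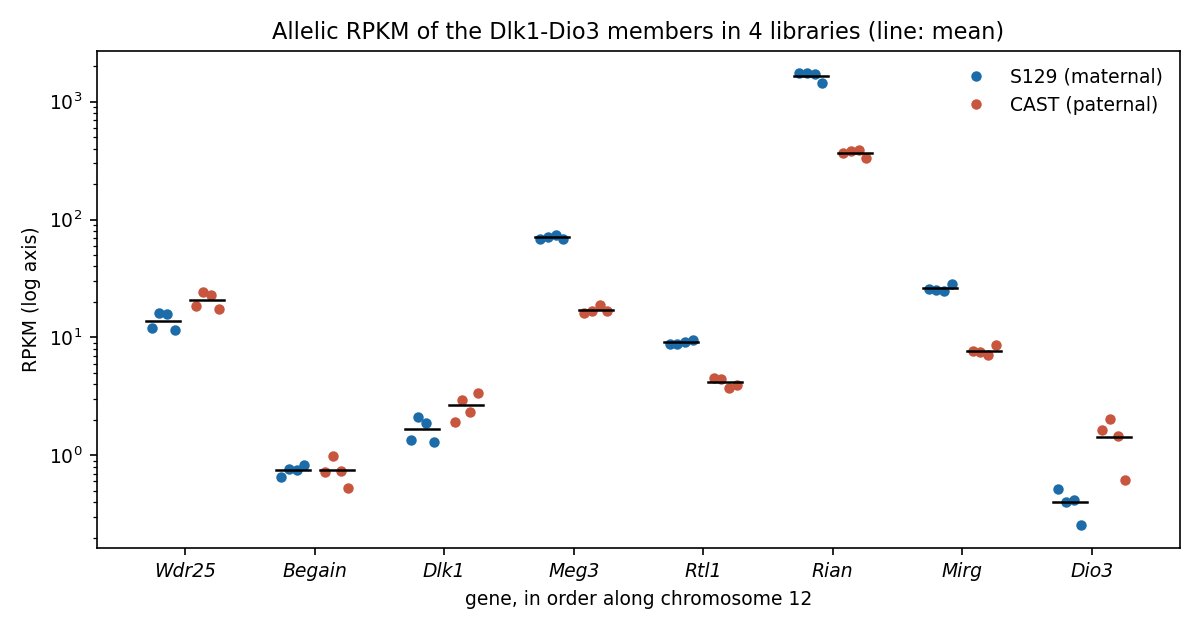
RPKM of each member on S129 (blue) and CAST (red) in the 4 libraries, on a log axis, in chromosome order; black lines are means. S129 points of Meg3, Rtl1, Rian and Mirg lie above all their CAST points, those of Dio3 lie below all theirs, and those of Begain overlap.

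Rian, which hosts the snoRNAs of the domain, had the largest S129 excess of the members. Its S129 RPKM was 1735, 1740, 1730 and 1440 in replicates 1 to 4, and its CAST RPKM was 369, 379, 389 and 334. Replicate 4 was the lowest on both alleles, and the alleles did not overlap. The difference was 2.17 ± 0.036 on the log2 scale (SE, n = 4; limma adjusted p = 6.74e-06). S129 held 82.9%, 82.7%, 82.2% and 81.8% of the reads of Rian, with 64657 reads in all, the most of any member.

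Mirg, which hosts miRNAs at the distal end of the non-coding transcription, had S129 RPKM of 25.7, 25.5, 24.6 and 28.3 and CAST RPKM of 7.63, 7.54, 7.13 and 8.68. Here replicate 4 was the highest on both alleles, unlike for Rian. The difference was 1.73 ± 0.031 on the log2 scale (SE, n = 4; limma adjusted p = 8.60e-06). The S129 share of reads was 77.6%, 77.9%, 78.1% and 77.2%. In every library the S129 share was highest for Rian, then Meg3, then Mirg: Rian exceeded Meg3 by 1.28 ± 0.69 percentage points and Meg3 exceeded Mirg by 3.41 ± 1.0 (SD, n = 4). The two-sided exact sign-flip permutation test gave p = 0.13 for each of these pairs, the smallest value that 4 libraries allow, and 0.175 after adjustment over the 7 pairs of members compared.

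The CAST reads of these RNAs were set beside X-linked genes, which a male line carries only on its maternal S129 chromosome, so that CAST reads there are one measure of wrong assignment. Over 1058 X-linked genes, CAST held 0.112%, 0.123%, 0.123% and 0.132% of the reads in replicates 1 to 4. The CAST share of Meg3 exceeded this by 18.7 ± 0.75 percentage points, that of Rian by 17.5 ± 0.51 and that of Mirg by 22.2 ± 0.39 (SD, n = 4). All 3 RNAs were above the X-linked share in 4 of 4 libraries. The exact sign-flip test again gave p = 0.13 for each, the smallest possible, and 0.13 after adjustment over the 3 genes. The reads do not tell whether the CAST RNA came from all cells or from a fraction of them.

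**Figure D2:**
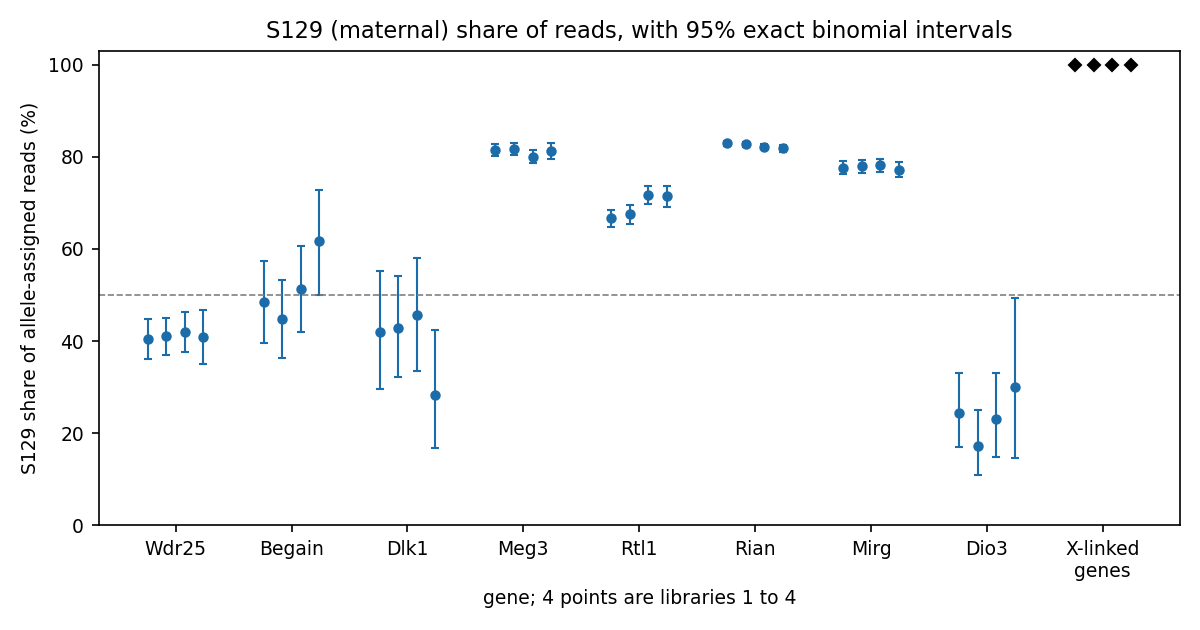
S129 share of the allele-assigned reads of each member in libraries 1 to 4 (points), with exact 95% binomial intervals, and of all X-linked genes (diamonds). Rian, Meg3 and Mirg lie between 77.2% and 82.9% in every library, well under the X-linked genes. Wdr25, Dlk1 and Dio3 lie under 50% in every library, the last 2 with wide intervals. Those of Dlk1 reach above 50% except in library 4.

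Rtl1 is known as a gene of the paternal copy, yet its reads were mostly S129. Its S129 RPKM was 8.73, 8.87, 9.15 and 9.52 in replicates 1 to 4, and its CAST RPKM was 4.51, 4.45, 3.75 and 3.97. The alleles did not overlap, and both were present in every library. The difference was 1.10 ± 0.076 on the log2 scale (SE, n = 4; limma adjusted p = 4.29e-04). S129 held 66.7%, 67.5%, 71.7% and 71.4% of its reads, which was 8.41 ± 2.6 percentage points under Mirg and 11.8 ± 3.2 under Meg3 (SD, n = 4), lower in 4 of 4 libraries. The library kit keeps strand, but whether the counting used it is not given in the sources used here, so reads of Rtl1 and of the maternal transcript opposite it cannot be told apart. Inside Rtl1, 7 miRNA genes are annotated, 6 of them on the opposite strand, among them those of the 5 miRNAs printed above, and all 7 were listed at 0 in all 8 columns. For comparison, miRNA rows were counted inside an exon of a host gene of at least 5 RPKM (mean of both alleles). Rows inside more than that host were left out. On the same strand as the host, 58 of 81 (71.6%) were listed at 0, and rows of this domain were not taken out. On the opposite strand outside Rtl1, 5 of 7 (71.4%) were listed at 0.

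Dlk1, which encodes a membrane protein of the Notch ligand family, and Dio3, which encodes the deiodinase that inactivates thyroid hormone, are paternally expressed by textbook knowledge. Both were low, and both had more CAST than S129 RNA in 4 of 4 libraries. The S129 RPKM of Dlk1 was 1.35, 2.10, 1.89 and 1.29 in replicates 1 to 4, and its CAST RPKM was 1.93, 2.92, 2.34 and 3.40. The values of the alleles overlapped between libraries, although CAST was higher within each of them. The difference was -0.64 ± 0.20 on the log2 scale (SE, n = 4), with a limma adjusted p of 0.0427. This rested on 108 S129 and 159 CAST reads, or 53 to 84 reads in a library. Replicate 4, in which S129 held 28.3% of the reads against 41.9% to 45.6% in the others, set much of its size: without it the difference was -0.41 (adjusted p = 0.00901), while without replicate 1, 2 or 3 the difference was larger (-0.70, -0.71 and -0.76) and the call was lost (adjusted p = 0.0961, 0.0922 and 0.0629). It was also lost under other filters and scalings (adjusted p up to 0.118). The pooled interval of the S129 share, 34.5% to 46.6%, lay under 50%.

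Dio3 had the largest CAST excess of the members. Its S129 RPKM was 0.514, 0.403, 0.421 and 0.255 in replicates 1 to 4, and its CAST RPKM was 1.64, 2.02, 1.46 and 0.619. Replicate 4 was the lowest on both alleles, but even its CAST value was above every S129 value. The difference was -1.55 ± 0.18 on the log2 scale (SE, n = 4; limma adjusted p = 0.00225). CAST held 75.6%, 82.8%, 76.9% and 70.0% of the reads, from 30 reads in replicate 4 and at least 91 in the others. Dlk1 had a higher S129 share than Dio3 in 3 of 4 libraries, by 16 ± 12 percentage points (SD, n = 4; exact sign-flip p = 0.250, adjusted p = 0.292).

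Begain and Wdr25 lie on the proximal side of the domain. Begain, which encodes a protein of the postsynaptic density, had S129 RPKM of 0.659, 0.762, 0.747 and 0.825 and CAST RPKM of 0.724, 0.981, 0.737 and 0.530. S129 was the higher allele in 2 libraries and CAST in 2. The difference was 0.031 ± 0.16 on the log2 scale (SE, n = 4; limma adjusted p = 0.878), and its sign turned without replicate 4, to -0.14. With 464 reads, the exact 95% interval of the S129 share ran from 45.6% to 54.9%.

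Wdr25, which encodes a WD-repeat protein, had S129 RPKM of 12, 16, 15.8 and 11.5 and CAST RPKM of 18.3, 24.1, 22.7 and 17.4. Replicates 2 and 3 were higher than replicates 1 and 4 on both alleles, and all CAST values lay above all S129 values. The difference was -0.58 ± 0.032 on the log2 scale (SE, n = 4; limma adjusted p = 2.29e-04). S129 held 40.4%, 41.0%, 41.9% and 40.8% of its reads, a narrow range. Wdr25 shares 544 bases with Wars, a neighbour on the other strand, and reads there could belong to either gene. Its share did not differ from that of Dlk1 beyond the spread between libraries (1.36 ± 7.5 percentage points, higher in 1 of 4 libraries, exact sign-flip p = 1.00).

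Between the outer ends of Wdr25 and Dio3 the file has 66 further rows, of which 61 are miRNA genes, 4 are snoRNA genes and 1 is the non-coding RNA 3110009F21Rik. PolyA-enriched RNA does not hold mature miRNAs, so reads on a miRNA row are pieces of longer transcripts that cover it. No reads were listed on 27 of these rows, 8 had 1 to 19 reads and 31 had at least 20 reads. All 31 had more S129 than CAST reads when the libraries were pooled, with S129 shares of 60.0% to 98.0% and a median of 76.3%. Among the 34 rows tested by limma, 25 were called higher on S129, against 31.4% of all genes tested, and 0 higher on CAST, also at an unadjusted p under 0.05. These rows share transcripts with each other and with the members, and are not independent of them.

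Along the domain, the rows between Meg3 and Rtl1 had a pooled S129 share of 68.1% (64.2%, 75.6%, 65.3% and 69.0% in replicates 1 to 4). Those inside Rian had 82.6% (79.1% to 85.2% over the libraries), those between Rian and Mirg 77.9% (73.2% to 81.3%) and those inside Mirg 75.7% (71.7% to 78.9%). The reads inside Rian were 1330 on S129 and 281 on CAST, and 1 intronic row, DQ267102, gave 345 and 7 of them. This row, at 98.0% S129, raised the share of its segment, while the snoRNA rows in exons of Rian had 77.3% and 75.1%. From Rian on, the ranges over the libraries overlapped between neighbouring segments. Before Rtl1 lay Mir493 (60.0% S129 of 20 reads), Mir540 (71.6% of 250), Mir665 (67.4% of 184), Mir3070a (61.2% of 49) and Mir3070b (68.6% of 255). Mir540, Mir665 and Mir3070b were called higher on S129, while Mir493 and Mir3070a did not pass the test.

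Inside Rian, the snoRNA rows DQ267100 and DQ267101, which overlap its exons, had S129 shares of 77.3% (844 reads) and 75.1% (205 reads). DQ267102, a snoRNA row in an intron of Rian, had 345 S129 and 7 CAST reads, an S129 share of 98.0% with an exact 95% interval of 95.9% to 99.2%. This row thus had a smaller CAST share than Rian itself, and its log2 difference was 6.07 ± 0.93 (SE, n = 4; limma adjusted p = 0.00525). Mir341, Mir1188 and Mir370, also in introns of Rian, had 78.3%, 90.9% and 83.3% S129 on 69, 99 and 42 reads. The call was made for Mir341 and Mir1188 and not for Mir370 (adjusted p = 0.0648).

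Between Rian and Mirg, Mir1193 had the most reads of the miRNA rows, 549 on S129 and 233 on CAST. Called higher on S129 beside it were Mir882, Mir323, Mir758, Mir329, Mir494, Mir666, Mir543, Mir667, Mir376c, Mir654 and Mir300, whose shares ran from 71.7% for Mir494 to 93.3% for Mir300. Mir1197 (70.0% S129 of 20 reads) and Mir376a (84.6% of 26) did not pass the test. Within or across Mirg, the rows called were Mir453 (68.4%), Mir377 (78.3%) and Mir409 (91.4%), while Mir496a (78.9%), Mir369 (65.0%) and Mir3072 (63.2%) were not. Mir369 had 20 reads and was higher on S129 in 2 of 4 libraries, and its log2 difference, -0.40 ± 1.72 (SE, n = 4), had the opposite sign to its pooled share. Of the 8 rows with 1 to 19 reads, Mir299a (83.3% S129 of 18 reads) and Mir154 (93.3% of 15) were called higher on S129, and Mir382 (81.8% of 11) did not pass the test. The others fell under the filter of 1 RPKM and were not tested: Mir673, between Meg3 and Rtl1, had 1 S129 and 6 CAST reads, Mir376b 3 and 0, Mir539 1 and 1, Mir544 4 and 0, and 3110009F21Rik 0 and 1.

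**Figure D3:**
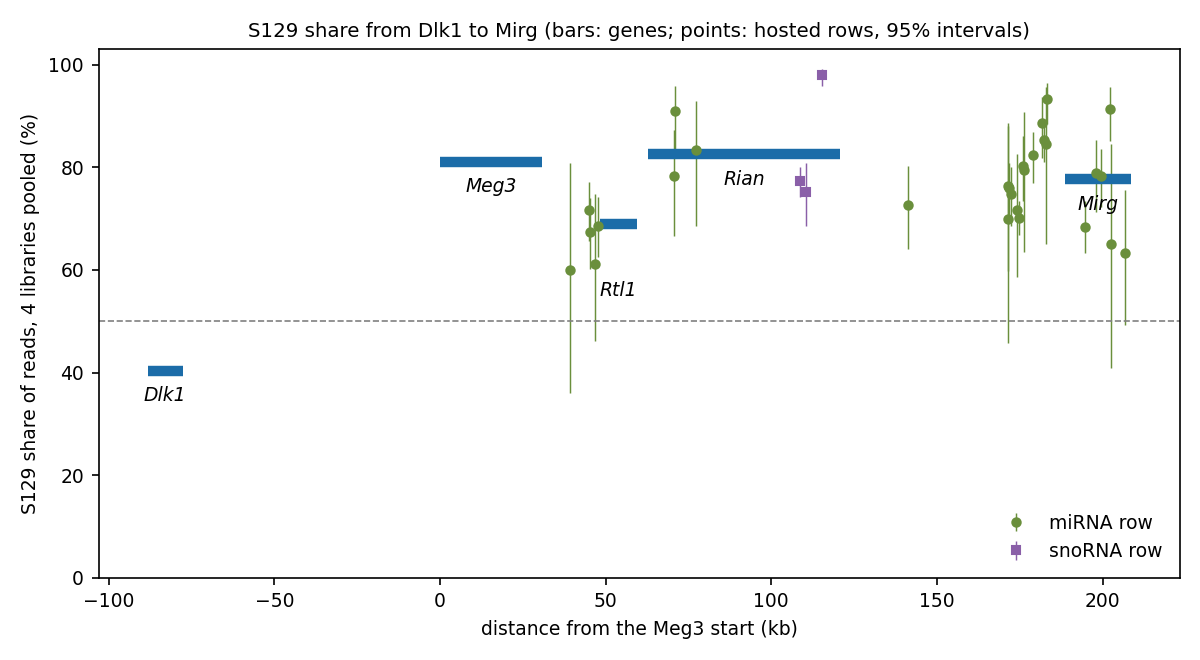
S129 share of reads, pooled over the 4 libraries, against the distance from the start of Meg3 for Dlk1, Meg3, Rtl1, Rian and Mirg (blue bars) and for the miRNA and snoRNA rows with at least 20 reads (points with exact 95% intervals). Dlk1 lies at 40.4%, and from Meg3 on every gene and row plotted lies at 60.0% or above.

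The mature miRNAs of the rows are shown by shared seed, to let the rows with reads be told apart by sequence. RefSeq held 114 mature sequences for the 61 miRNA rows, and 10 seeds were shared by 2 genes each, none by more. Printed are the pairs of shared seeds in which both rows had at least 20 reads, with bases 2 to 8 in capitals.
mmu-miR-370-5p: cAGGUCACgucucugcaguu
mmu-miR-1193-3p: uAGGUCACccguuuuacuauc
mmu-miR-1197-5p: cGGUUGACcaugguguguacg
mmu-miR-758-5p: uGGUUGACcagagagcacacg
mmu-miR-453: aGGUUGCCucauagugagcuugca
mmu-miR-496a-5p: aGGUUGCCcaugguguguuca
mmu-miR-3070-5p, the same from Mir3070a and Mir3070b: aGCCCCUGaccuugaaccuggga
mmu-miR-3070-3p: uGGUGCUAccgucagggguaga
mmu-miR-3070-2-3p: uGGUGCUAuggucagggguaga
The miR-370 and miR-1193 rows, which share a seed, had S129 shares of 83.3% and 70.2%, and those of miR-1197 and miR-758 had 70.0% and 75.9%. Mir453 and Mir496a had 68.4% and 78.9%. Mir3070a and Mir3070b, whose 5p sequences are the same and whose 3p sequences differ, had 61.2% and 68.6%. The 2 genes were not compared over their whole length, and how reads matching both were divided is not known.

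Levels between members depend on the length by which reads were divided. The length recovered from the deposited values was 329 bp for Rian, while all its annotated exons together measure 18234 bp. It was 1498 bp of 18089 bp for Meg3, 668 bp of 5657 bp for Dlk1 and 578 bp of 4793 bp for Wdr25. Rtl1 and Dio3 had the same length either way, 6358 bp and 2030 bp. As deposited, the level (the mean RPKM of both alleles) was 1015 ± 85 for Rian, 43.9 ± 1.7 for Meg3, 17.2 ± 2.8 for Wdr25, 16.9 ± 1.1 for Mirg, 6.62 ± 0.12 for Rtl1, 2.15 ± 0.38 for Dlk1, 0.917 ± 0.34 for Dio3 and 0.746 ± 0.088 for Begain (SD, n = 4). In this order Wdr25 and Mirg, and Dio3 and Begain, did not differ beyond their spread.

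With the length of all annotated exons, the order became Rian (18.3 ± 1.5 RPKM), Mirg (8.78 ± 0.59), Rtl1 (6.62 ± 0.12), Meg3 (3.63 ± 0.14), Wdr25 (2.08 ± 0.34), Dio3 (0.917 ± 0.34), Begain (0.553 ± 0.066) and Dlk1 (0.254 ± 0.044; SD, n = 4). Rian stood first either way, but its level was higher than that of 99.2% of the genes tested as deposited and of 80.5% with the exon length. Dlk1 fell from the sixth to the lowest place among the members. Only reads over a SNP enter these values, so levels between genes also depend on how many SNPs each gene holds. The allele differences do not change with the length, apart from the pseudocount.

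**Figure D4:**
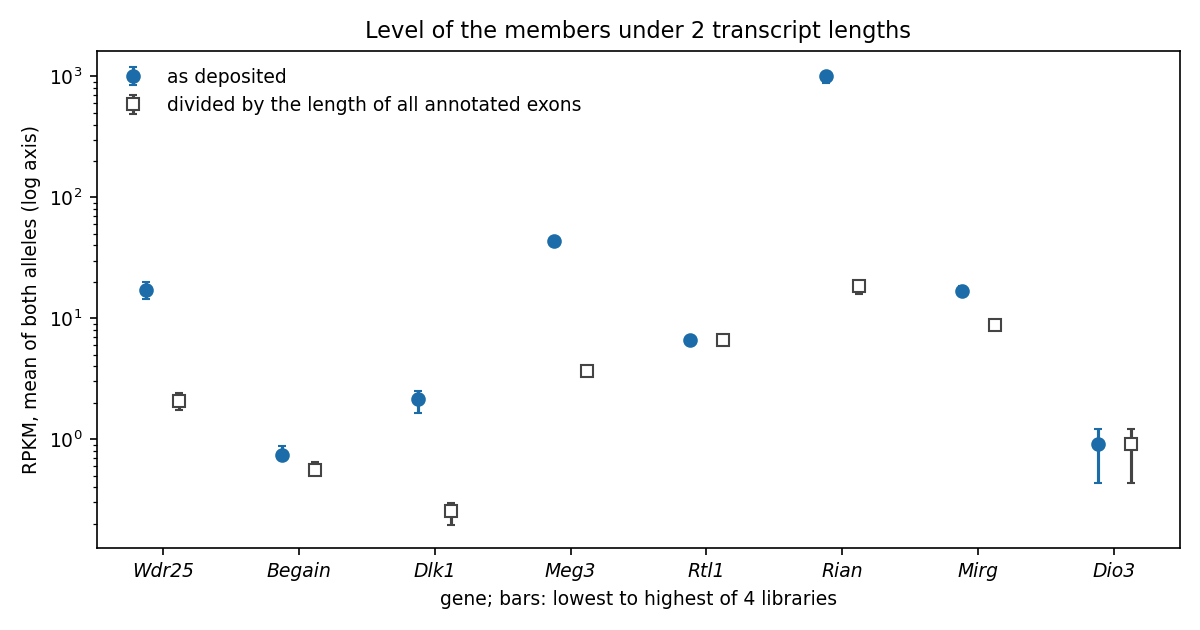
Level of each member (mean RPKM of both alleles, log axis) as deposited (filled) and with the length of all annotated exons (open); points are means and bars run from the lowest to the highest of 4 libraries. Rian falls from 1015 to 18.3 RPKM and Meg3 from 43.9 to 3.63, while Rtl1 and Dio3 stay where they are.

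Other imprinted genes gave a scale for the allelic bias of the members. Of 22 other genes listed as maternally expressed, 18 were tested by limma, 11 were called higher on S129 and 2 on CAST. The shares over all genes tested were 31.4% and 31.3%. Only Phlda2 and Ascl2, both known for roles in the placenta, also passed 2-fold, with S129 shares of 78.0% and 71.7%. Of all genes tested, 9.55% were called higher on S129 with at least 2-fold, so these 2 calls do not set the list apart. H19, the highest of this list at 1049 ± 146 RPKM (SD, n = 4), had an S129 share of 53.5%. Of the 35 imprinted genes outside the domain with at least 400 reads, 0 had a larger S129 share than Meg3, and 1, Phlda2, had a larger share than Mirg. Among all 11377 autosomal genes with at least 400 reads, 1.49% reached the S129 share of Meg3 and 4.60% that of Rtl1. The median S129 share of protein-coding genes on chromosome 12 was 49.9%.

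Of 27 other genes listed as paternally expressed, 20 were tested, 12 were called higher on CAST and 1 on S129. The shares over all genes tested were 31.3% and 31.4%. Peg3, Usp29, Peg13 and Ndn passed 2-fold on the CAST side, with S129 shares of 10.4%, 16.6%, 18.0% and 32.3%. Of all genes tested, 5.43% were called higher on CAST with at least 2-fold. Peg3, a zinc-finger gene, had 4.49 ± 0.16 RPKM on S129 and 39.8 ± 2.6 on CAST (SD, n = 4). The S129 share of Dio3, 22.1%, lay between those of Peg13 and Ndn. Like Rtl1, Sfmbt2 is listed as paternally expressed and was higher on S129, with 74.0% of its reads. It was also the highest of its list, at 128 ± 5.5 RPKM.

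**Figure D5:**
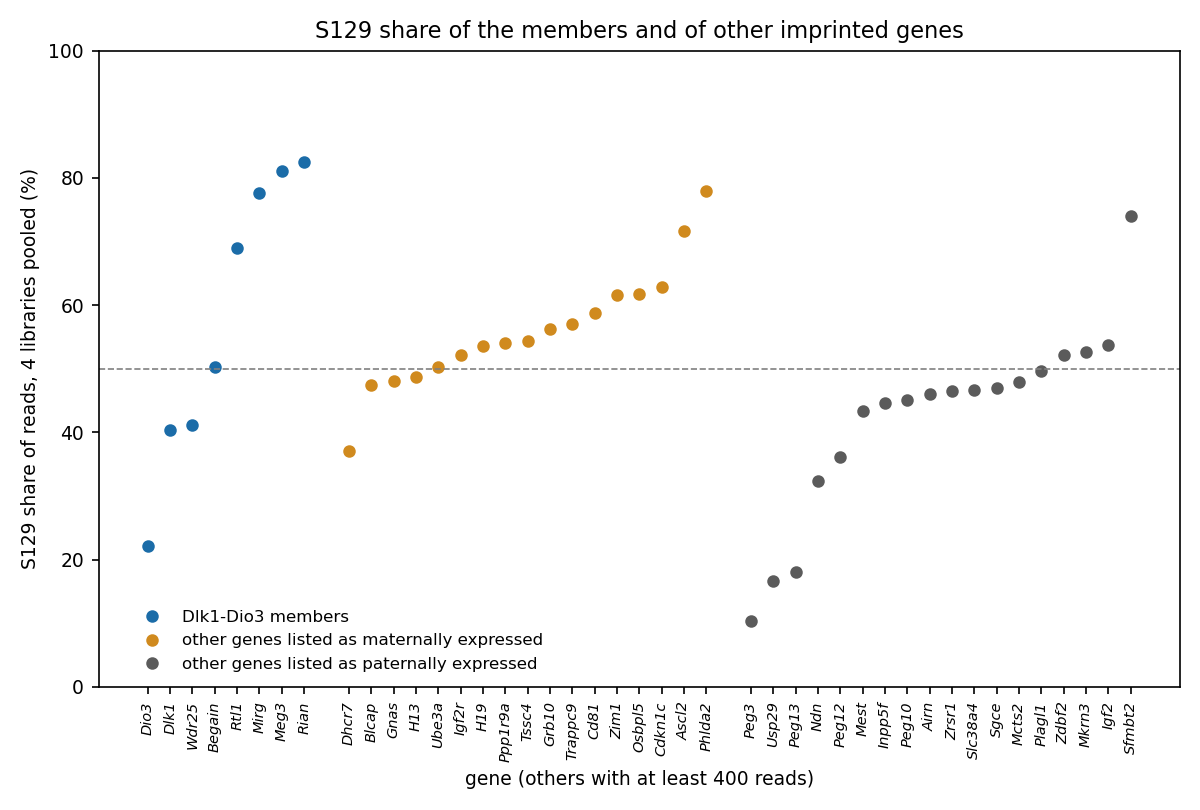
S129 share of reads, pooled over 4 libraries, for the 8 members (blue) and for other genes listed as maternally (orange) or paternally (grey) expressed with at least 400 reads, ordered within each set. Rian, Meg3 and Mirg lie at 77.7% to 82.5%, where only Phlda2 of the other imprinted genes is found.

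Regulators of imprints were expressed from both alleles. Of 20 such genes, all were tested, 6 were called higher on S129 and 10 on CAST, against 31.4% and 31.3% of all genes tested. The median S129 share of the list was 49.3%. Its median log2 difference was -0.10, of the same size as the 0.10 by which rescaling to one autosomal sum moved the median of all genes. Zfp57, whose protein protects methylated imprints, had 39.8 ± 1.5 RPKM on S129 and 10.8 ± 1.1 on CAST (SD, n = 4), an S129 share of 79.1%. Setdb1, a histone methyltransferase that acts with the same complex, had the opposite bias, with 31.8% S129. Dnmt3l, a cofactor of the DNA methyltransferases, was the highest of the list at 2142 ± 86 RPKM. Among 14 partners of the members (Notch receptors, thyroid hormone genes and the p53 pathway), 10 were tested, 2 were called higher on S129 and 3 on CAST, and none of these calls reached 2-fold. Over all genes tested, 31.4% and 31.3% were called, and 9.55% and 5.43% were called with at least 2-fold. Trp53, which encodes p53, was the highest at 145 ± 13 RPKM.

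Genes outside the domain were examined beside it. Of the 10 nearest protein-coding genes on each side, 18 were tested, 3 were called higher on S129 and 10 on CAST. The shares over all genes tested were 31.4% and 31.3%. Of these neighbours' calls, 0 reached 2-fold. Over all genes tested, 9.55% did so on the S129 side and 5.43% on the CAST side. For those with at least 400 reads the S129 share ran from 39.4% to 54.2%. Wars, a tRNA synthetase gene beside Wdr25, was called higher on CAST with 47.7% S129. Ppp2r5c, a phosphatase subunit gene beyond Dio3, was called higher on S129 with 53.4%. The other calls were Slc25a47 and Cinp on S129, and Ccdc85c, Eml1, Evl, Degs2, Yy1, Hsp90aa1, Mok, Zfp839 and Tecpr2 on CAST. Some of these log2 differences were small, such as -0.11 for Hsp90aa1, -0.18 for Wars and 0.14 for Ppp2r5c. Rescaling to one autosomal sum moved the median of all genes by 0.10, so such calls depend on the scaling. Others were larger, such as -0.66 for Mok and 0.77 for Slc25a47. Wdr25 at 41.1% S129, Dlk1 at 40.4% (on 267 reads) and Begain at 50.2% lay within the range of these neighbours.

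By the mean absolute distance of the log2 allele difference over the 4 libraries, the autosomal genes most like Meg3 were Rnf7 (chromosome 9, distance 0.053, S129 share 81.1%), Ubb (chromosome 11, 0.082, 80.8%) and Foxd3 (chromosome 4, 0.10, 81.6%). Those most like Dlk1 were Phf7 (chromosome 14, 0.083, 42.4%), Slc36a4 (chromosome 9, 0.091, 40.3%) and Lrig2 (chromosome 3, 0.093, 39.9%). None of these genes lies on chromosome 12.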

How the data were processed

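The authors deposited RPKM values for 24026 genes, for S129 and CAST in each of 4 libraries, with the average of each allele and its log10. They filtered ribosomal RNA, trimmed reads with Trimmomatic 0.40, mapped them by STAR on mm10 with SNP positions masked, and divided them between alleles by SNPsplit. The counting program, annotation and strand setting are not given in the sources used here. Reads without a SNP enter no value, which lowers the counts of genes with few SNPs. The number in a column's name gave its library.

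Genes were matched to GENCODE M21 by Ensembl identifier (24003 matched). Whole reads were recovered from the RPKM steps, within 0.02 reads, for 99.5% of the 20243 genes above 0, including all 8 members. S129 and CAST reads summed to 34120416 to 56627972 per library. The alleles of each library were compared by limma 3.58.1 (R 4.3.3) on differences of log2(RPKM+0.1), for genes with at least 1 RPKM over both alleles together, with Benjamini-Hochberg adjustment and a threshold of 0.05. Both alleles come from the same library: over 4226 genes, columns of one number deviated together with r of 0.758 to 0.868. Shares have exact binomial intervals. Recovery and limma were tested on simulated data.

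The members and gene lists were chosen with earlier results of these data known. Named were the members, all other rows of the domain with at least 20 reads, the nearest and the called flanking genes, from the lists of imprint regulators, partners and other imprinted genes those called with at least 2-fold and the highest, and the 3 genes most like Meg3 and Dlk1. Rows with fewer reads and other exceptions were named after their values were seen. Alternatives changed the pseudocount, the filter, the scaling, the block, the model of variance, the measure of level or share, and the libraries used. Lists of primitive endoderm and early neural markers were also examined: of the 7 and 3 genes tested, 3 and 3 were called, all higher on CAST. Over all genes tested, 31.3% were called higher on CAST.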

Additional observations from a re-analysis of the deposited data

Results flagged for a closer look

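Each of 24 sets of 4 library values (S129 RPKM, CAST RPKM and S129 share of the 8 members) was searched for a value far from the other libraries, of which chance gives about 1 in 20. This held for 2 sets. The CAST RPKM of Meg3 was 19 in replicate 3, against 16.2 to 16.6 in the others, while its S129 RPKM there was 73.4. The S129 RPKM of Rian was 1440 in replicate 4, against 1730 to 1740 in the others. The S129 share of Rian in replicate 4, 81.8%, was not far from the others.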

How the results depend on the processing

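The counts of genes called on each allele stayed within 1.5 times under all 28 alternatives. For Meg3, Rian, Mirg, Rtl1, Dio3 and Wdr25, all 83 alternative allele differences kept direction and call. For Dlk1, the call was lost with a filter of 0.1 RPKM (-0.64, adjusted p = 0.0575), no filter (-0.64, 0.118), rescaling to one autosomal sum (-0.54, 0.0711), whole reads not divided by the total (-0.60, 0.0545) and without replicate 1, 2 or 3 (-0.70 to -0.76); without replicate 4 it was kept (-0.41). The first 2 alternatives test more genes, and those without a replicate have fewer samples, also the one that kept the call. Why the call was lost was not tested for any of them. For Begain the difference reversed to -0.14 without replicate 4 and was at most 0.15 with another library left out. Without the replicate block, limma called 3292 genes higher on S129 and 3133 higher on CAST, and the block changed no call of a member. Rescaling gave 5134 against 3070 in place of 4187 against 4182.

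As a share of RPKM in place of reads, S129 held 40.2% of Wdr25, 81.9% of Rian and 77.0% of Mirg. The higher allele alone gave levels of 20.6 RPKM for Wdr25, 2.65 for Dlk1, 70.7 for Meg3, 9.07 for Rtl1, 1661 for Rian, 26.0 for Mirg and 1.44 for Dio3. The length of all annotated exons, added after seeing the data, gave 2.08 for Wdr25, 0.553 for Begain, 0.254 for Dlk1, 3.63 for Meg3, 18.3 for Rian and 8.78 for Mirg. All 18 alternatives for the excess of CAST over X-linked genes stayed above 0. Depth limits Dlk1, Dio3 and Begain, which had 30 to 143 reads in a library.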
